A study of Homo sapiens with 22 samples.

Results

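The genes described here are 9 genes of the p53 response, chosen by symbol: the p53 inhibitors MDM2 and MDM4, the cell cycle genes CDKN1A, BTG2 and GADD45A, the stress genes SESN1 and ZMAT3, and the death genes BBC3 and PMAIP1. All 9 were listed among the 59087 gene names of both count tables, and all 9 passed the filter on low counts, with 13236 genes tested in the H2A.X experiment and 13879 in the BAZ1B experiment. RNA-Seq was performed in HUDEP-2 cells, an immortalized human erythroid progenitor line, in expansion medium (D0) and after 6 days in maturation medium (D6). The H2A.X experiment held 2 WT and 3 H2A.X KO libraries at each day, and the one on BAZ1B had 3 libraries of WT and 3 of BAZ1B KO at each day, which makes 22 libraries. The knockouts were made with CRISPR/Cas9 in subclones of the line, so a group of KO libraries is a group of clones. The guides were placed around the H2A.X coding sequence, or around the first exon of BAZ1B. BAZ1B WT and H2A.X WT below are the WT cells of each experiment, which the study describes as subclones handled in the same way as the KO lines. The 2 tables were made and analysed separately.

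p53 is a transcription factor that is stabilized by DNA damage, ribosomal stress and other insults and then switches on genes for cell cycle arrest, repair, antioxidant defence and cell death. MDM2, itself a target of p53, marks the protein for degradation, and MDM4 masks its activation domain, so both close a feedback loop. The histone variant H2A.X is phosphorylated at DNA breaks by the kinases that also act on p53, BAZ1B is a tyrosine kinase that acts on H2A.X, and in red cell precursors p53 is best known for the anemias that follow defects in ribosome production. All groups of both genotypes share one feature that bears on this pathway: HUDEP-2 cells were immortalized with the papillomavirus genes E6 and E7 under doxycycline control, the study's methods list doxycycline in the media of both days, and E6 directs p53 to degradation. Dexamethasone was listed in the expansion medium and not in the maturation medium.

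p53 binds DNA as a tetramer at a pair of decamers, each with a core of C, a pair of variable bases and G. The sequences within 3000 bases of each gene's annotated start in GRCh38 were searched on both strands for 20 bases that match the p53 consensus pair without a spacer, and the best matches are shown to let the letters of these genes be set beside the consensus. At most 2 mismatches were found for 6 of the 9 genes, against 4.66% of 18836 protein-coding genes. The capitals mark both cores.
ZMAT3: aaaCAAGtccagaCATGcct
GADD45A: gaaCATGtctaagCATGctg
CDKN1A: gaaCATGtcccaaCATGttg
MDM2: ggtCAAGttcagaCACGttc
BTG2: acgCATGttcaggCATGcat
PMAIP1: gggCTTGtttaccCAAGtct
The ZMAT3 match (chr3:179070188-179070207, minus strand, intron) had 0 mismatches, which 0.069% of the genes had. The GADD45A match (chr1:67686775-67686794, plus strand, intron) had 1 mismatch, which at most 0.637% of the genes reached. The other 4 had 2 mismatches each. They lay in an intron of MDM2 (chr12:68808923-68808942), across the first bases of the CDKN1A gene, at position -2265 from its main annotated start (chr6:36676449-36676468), at -1877 from the start of BTG2 within the divergent transcript BTG2-DT (chr1:203303642-203303661) and at -447 from the start of PMAIP1 (chr18:59899549-59899568), all on the plus strand. No match of this quality was found in these windows for MDM4, SESN1 and BBC3. A match is a description of the letters, and binding was not measured.

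The depth and the state of the libraries set how firmly these genes can be described. Total counts were 11910141 to 21013004 in the H2A.X table and 33199408 to 41273244 in the BAZ1B table, and the biological coefficient of variation was 0.239 and 0.0865, so the same fold change has a smaller error in the BAZ1B experiment. The knockout targets were lower in KO at D0 and D6, with log2 fold changes of -1.499 and -1.52 for H2AFX, the older symbol of the H2A.X gene, and of -0.40 and -0.38 for BAZ1B, where reads from the rest of the gene can still be counted. H2AFX was at 18.96 and 17.5 CPM in KO replicate 1 at D0 and D6 and at 43.3 to 59.8 CPM in replicates 2 and 3, against 89.7 to 136 CPM in WT. The H2AFX reads of the KO subclones were unequal, and all lay below WT. These reads do not measure the protein. The study identified homozygous deletions by PCR and sequencing, and reports that phosphorylated H2A.X was lost in its KO lines on Western blots. For H2A.X, 5 of 6 KO columns and no WT column are marked as repeated in their names, so at D0 that mark and the genotype cannot be told apart. The 2 H2A.X WT libraries at D0 had a summed level of 15 erythroid markers of 24818 to 33863 CPM (counts scaled to a common library total). This erythroid sum was 12662 to 16784 CPM in H2A.X KO at D0. In the BAZ1B experiment at D0 it was 7003 to 7765 CPM in WT and higher in KO, at 8079.7 to 8588.5 CPM. The sum of 8 mast cell and eosinophil markers was 104 to 140 CPM in H2A.X WT and 209 to 419 CPM in H2A.X KO at D0. At D6 it was 145 to 232 CPM in H2A.X WT and 3.08 to 13.5 CPM in H2A.X KO. In the BAZ1B experiment this sum was 467 to 508 CPM in WT and 453 to 620 CPM in KO at D0. It was 30.0 to 40.8 CPM in BAZ1B WT and 12.2 to 38.4 CPM in BAZ1B KO at D6. The part of these markers in the results was not tested. At D6 the erythroid sum was 38744 to 65417 CPM in H2A.X WT, 44451 to 74878 in H2A.X KO, 40168 to 46122 in BAZ1B WT and 33885 to 39949 in BAZ1B KO. T cell, B cell and monocyte markers summed to at most 0.91, 0.52 and 6.30 CPM in any library, and of 4 megakaryocyte markers PF4 and PPBP had no read. The sum of the 4 was 8.72 to 9.67 CPM in H2A.X WT and 32.7 to 75.7 CPM in H2A.X KO at D0. It was 72.3 to 75.5 CPM in BAZ1B WT and 34.4 to 67.6 CPM in BAZ1B KO at D0. At D6 it was 1.42 to 10.4 CPM in any library. In bulk RNA fewer cells of a type and less RNA per cell cannot be told apart.

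Compared per kilobase of exon, so that long and short genes can be set side by side, CDKN1A was the lowest of the 9 genes in every group except H2A.X WT at D6, where it and ZMAT3 were at 0.80 and 0.77 CPM per kilobase. BTG2 was the highest gene at D6 in all 4 groups, at 41.0 to 71.3 CPM per kilobase. At D0 MDM2 was the highest in 3 of 4 groups, at 9.06 to 9.12 CPM per kilobase, and in H2A.X WT BTG2 was the highest at 24.4 CPM per kilobase. Between those ends, GADD45A was second at D6 in all 4 groups, and MDM4 was above SESN1 in both H2A.X WT groups and below it in the other 6.

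**Figure D1:**
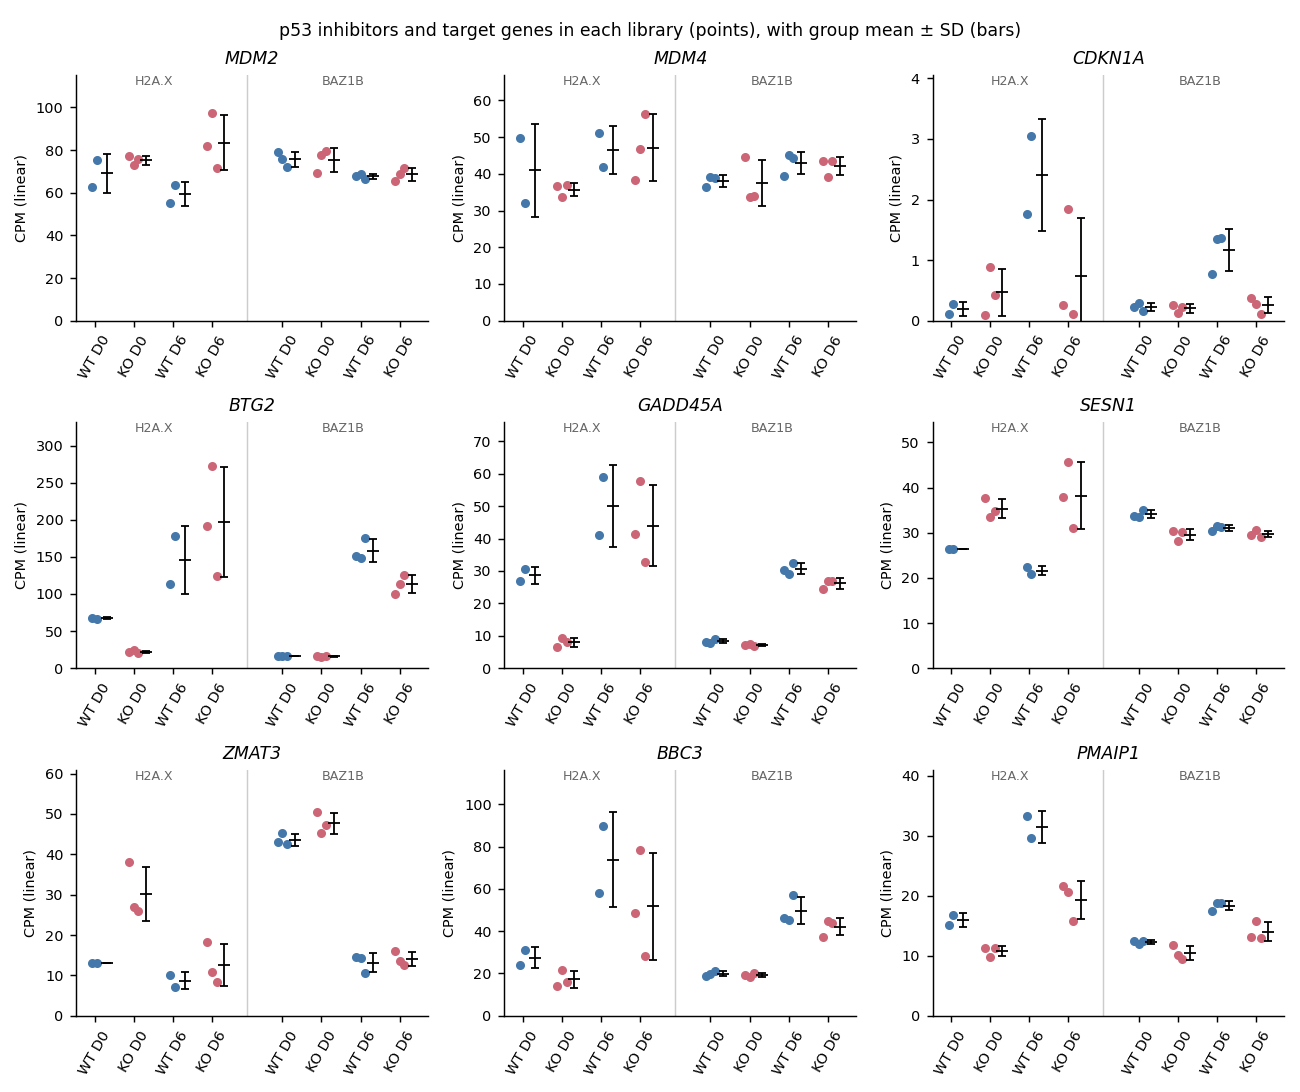
CPM (linear axis) of each gene in each of the 22 libraries, WT in blue and KO in red, with the mean ± SD of the group in black; the lower end of the CDKN1A bar in H2A.X KO at D6 lies below 0 and is cut at the axis. The group means of BTG2, GADD45A and BBC3 lie higher at D6 than at D0 in both genotypes of both experiments, those of ZMAT3 lie lower, and CDKN1A is at most 3.06 CPM in any library.

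The question put to each gene was whether its level depended on the knockout at each day, on maturation within a genotype, or on both. A gene was called at an adjusted p below 0.05 in edgeR's quasi-likelihood test, with adjustment over all genes of the table. The shares of all tested genes given here and below count both directions together unless a direction is named. In the H2A.X experiment 4 of the 9 genes were called between KO and WT at D0 (BTG2, GADD45A and PMAIP1 lower, ZMAT3 higher), where 35.1% of all tested genes were called, and 3 at D6 (MDM2 and SESN1 higher, PMAIP1 lower), where 43.1% were. In the BAZ1B experiment 1 gene was called at D0 (SESN1, lower), against 3.88% of all genes, and 3 at D6 (CDKN1A, BTG2 and PMAIP1, all lower), against 12.8%, with 5.97% of all genes called lower. In that last comparison 6 of 15 erythroid markers were called lower and 0 higher, and the 1 megakaryocyte marker tested was lower. Their part in the lower members was not tested. None of these calls reached the stricter cutoffs after the study's own, taken here as an adjusted p below 0.001 with an absolute log2 fold change above 1.5, which 0.166%, 0.151%, 0.36% and 0.749% of all genes reached. With DESeq2, and likewise without the filter on low counts, 2 of the 9 genes reached them in H2A.X KO at D0 and 1 in BAZ1B KO at D6. With the replicate block 1 did in H2A.X KO at D0. The study states its own cutoff as a p-value below 0.001 and does not call it adjusted. With the unadjusted edgeR p in place of the adjusted one, BTG2 and GADD45A reached the cutoffs in H2A.X KO at D0 (log2 fold changes -1.61 and -1.85). CDKN1A then reached them in BAZ1B KO at D6 (-2.19). The shares of all genes that reach them with the unadjusted p, DESeq2, no filter or the replicate block are not given. The median log2 fold change of the 9 genes was -0.20 and 0.01 in H2A.X KO at D0 and D6 and -0.05 and -0.23 in BAZ1B KO, while that of all tested genes was between -0.01 and 0.01. The KO and WT libraries did not overlap for 6 and 3 of the 9 genes in the H2A.X experiment at D0 and D6, against 70.3% and 63.3% of all genes, and for 4 and 5 in the BAZ1B experiment, against 22.5% and 30.8%.

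Calls with maturation were counted in each genotype by itself. From D0 to D6, 8 of 9 genes were called in the WT cells of the BAZ1B experiment (5 higher, 3 lower) and 6 of 9 in BAZ1B KO (4 higher, 2 lower), against 68.9% and 67.7% of all tested genes, so a call by itself does not set these genes apart. In H2A.X KO 5 of 9 were called (4 higher, 1 lower) against 30.9%, and in H2A.X WT 1 of 9 (PMAIP1, higher) against 2%. In H2A.X WT 5 of 9 had an unadjusted p below 0.05, and 5 of 9 were called with the replicate number as a block. The shares of all genes for those last counts are not given, so the 2% cannot be set beside them. The stricter cutoffs were reached by 4 genes in BAZ1B WT (BTG2, CDKN1A and GADD45A higher, ZMAT3 lower), by 3 in BAZ1B KO (BTG2 and GADD45A higher, ZMAT3 lower) and by 2 in H2A.X KO (BTG2 and GADD45A, higher), where 11.7%, 11.5% and 3.22% of all genes reached them. With the unadjusted edgeR p, BBC3 also reached them in H2A.X KO (log2 fold change 1.58). The share of all genes that do so is not given. The median log2 fold change of the 9 genes was 0.58 in BAZ1B WT, 0.31 in BAZ1B KO, 0.80 in H2A.X WT and 0.66 in H2A.X KO, against -0.02 to 0.02 over all tested genes. The days did not overlap for 9 of 9 genes in BAZ1B WT, 5 in BAZ1B KO, 7 in H2A.X WT and 6 in H2A.X KO, against 78%, 68%, 51.3% and 48.8% of all genes. The KO libraries of both days come from the same numbered subclones, and with the subclone as a block MDM4 was also called in BAZ1B KO (log2 fold change 0.17, adjusted p = 0.039), which makes 7 of 9, and the count in H2A.X KO stayed at 5. The shares of all genes called with that block are not given.

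Whether the KO effect changed between the days was tested as 1 term. BTG2 was called with H2A.X, against 1.34% of all genes, and in the BAZ1B experiment 0 of 9 genes were called by edgeR, against 2.47%, with 2 at an unadjusted p below 0.05 and 1 called by DESeq2. By edgeR 0 of the 9 genes reached the stricter cutoffs in this test, which 0% and 0.0288% of all genes did. For H2A.X, 1 gene reached them with DESeq2 and 2 without the filter. With the unadjusted edgeR p, BTG2 reached them in the H2A.X experiment (log2 difference 2.04). For this test the shares of all genes with DESeq2, without the filter or at an unadjusted p are not given.

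**Figure D2:**
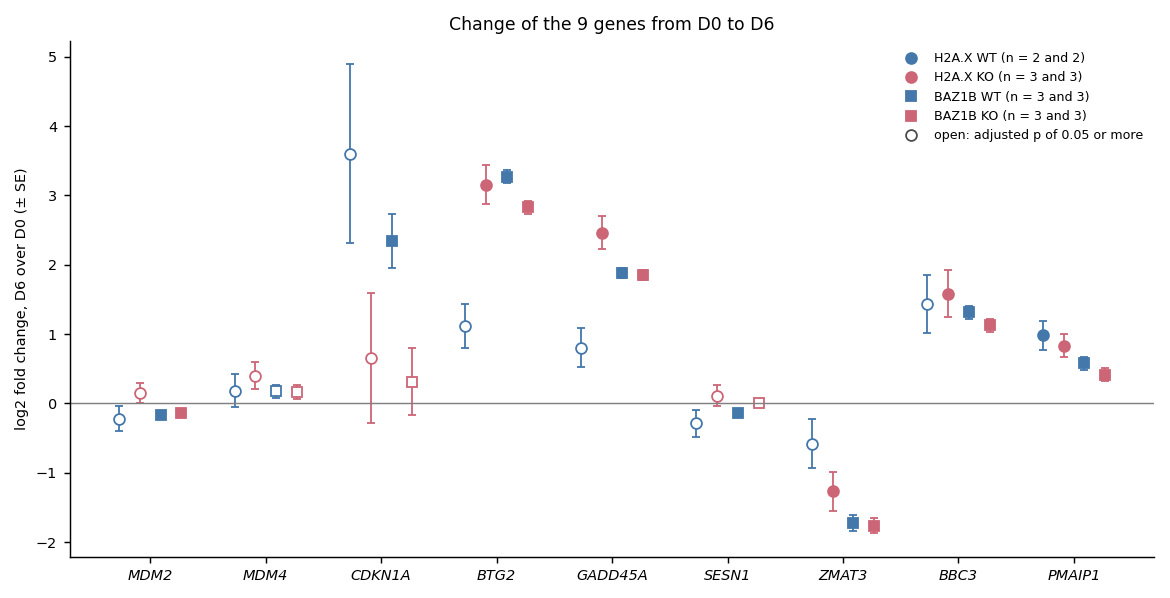
Log2 fold change from D0 to D6 (± SE, edgeR) of each gene in the WT and KO cells of both experiments; filled symbols have an adjusted p below 0.05 over all genes of the table. BTG2 and GADD45A are the genes with the largest rise that passed the test in both KO groups, ZMAT3 lies below 0 in all 4, and CDKN1A passed it in BAZ1B WT alone.

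MDM2 (chr12:68808177-68845544, plus strand), the ubiquitin ligase that turns p53 over, differed little between the genotypes of the BAZ1B experiment. It was measured at 69.1, 77.5 and 79.4 CPM in BAZ1B KO at D0 and at 79.2, 75.8 and 72.2 CPM in the WT cells, and the ranges overlapped. The difference was -0.01 ± 0.05 (SE, log2), and at D6 it was 0.02 ± 0.06. With maturation MDM2 went from 72.2 to 79.2 CPM at D0 to 66.5 to 68.6 CPM at D6 in the WT cells of that experiment, a log2 fold change of -0.16 ± 0.06 (edgeR, adjusted p = 0.018), and by -0.13 ± 0.06 in BAZ1B KO (edgeR, adjusted p = 0.046), where the ranges overlapped. With each library corrected for gene length and GC content, these values were -0.01 and 0.02. The call in WT was lost without WT replicate 1 of D0 or replicate 3 of D6 (adjusted p = 0.084 and 0.071), and that in KO without KO replicate 2 or 3 of D0, KO replicate 1 or 2 of D6 or any of the 6 WT libraries (0.0502 to 0.19).

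In the H2A.X experiment MDM2 was measured at 62.7 and 75.4 CPM in WT and 77.0, 73.0 and 75.8 CPM in KO at D0, with overlap. At D6 it was 55.3 and 63.5 CPM in WT and 81.7, 97.3 and 71.5 CPM in KO, without overlap, 0.49 ± 0.17 higher on the log2 scale (edgeR, adjusted p = 0.036). That call was lost without any 1 of the 3 KO libraries of D0, KO replicate 1 or 2 of D6 or either WT library of D6 (adjusted p = 0.055 to 0.17), and the log2 fold change was -0.39 with the length and GC correction. With that correction MDM2 was lower in KO at D0, at -0.71 (adjusted p = 0.020), so the direction of the MDM2 difference in H2A.X KO changed with the processing at both days.

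MDM4 (chr1:204516379-204558120, plus strand), the inhibitor that blocks p53 without degrading it, was not called in any of the 10 comparisons as fitted. Its level was 32.0 to 56.4 CPM over the 10 libraries of the H2A.X experiment and 33.8 to 45.1 CPM over the 12 of the BAZ1B experiment. In BAZ1B KO the difference from WT was -0.02 ± 0.10 at D0 and -0.03 ± 0.10 at D6, and from D0 to D6 the gene moved by 0.18 ± 0.10 in WT and 0.16 ± 0.10 in KO, or 0.44 and 0.42 with the length and GC correction (adjusted p = 0.0022 and 0.0032). That change was also called without KO replicate 1 of D0, at 0.18 in WT (adjusted p = 0.017) and 0.31 in KO (adjusted p = 0.0012), and without the filter on low counts (adjusted p = 0.031 in both). With WT fitted alone it was called in WT (adjusted p = 0.0075), and with the replicate number as a block its adjusted p was 0.034 in WT. In H2A.X KO the difference was -0.20 ± 0.22 at D0 and 0.01 ± 0.22 at D6, and it was -1.19 (adjusted p = 0.011) and -0.90 (adjusted p = 0.031) with the length and GC correction. The exons of MDM2, MDM4, SESN1 and ZMAT3 add up to 8.31, 11.01, 7.28 and 11.3 kb, the longest of the 9 genes, and their longest transcripts have 39.5%, 42.3%, 40.6% and 38.2% GC.

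BTG2 (chr1:203305491-203309602, plus strand) encodes an antiproliferative protein that recruits messages for deadenylation. In the WT cells of the BAZ1B experiment it was measured at 16.3, 16.1 and 16.8 CPM at D0 and 151.4, 148 and 175.7 CPM at D6, a 9.65-fold rise (log2 3.27 ± 0.09, edgeR, adjusted p = 1.9e-11). In BAZ1B KO it was measured at 16.8, 14.6 and 16.4 CPM at D0 and 100.6, 113.3 and 125.1 CPM at D6, a 7.11-fold rise. The 2 genotypes overlapped at D0 and not at D6, where every KO library was lower than every WT library. The KO effect was -0.05 ± 0.09 at D0 and -0.49 ± 0.08 at D6 (edgeR, adjusted p = 0.0016), which is 1.40-fold lower. Their difference was -0.44 ± 0.12 with an adjusted p of 0.087 in edgeR, and it passed under DESeq2 (adjusted p = 0.021).

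The H2A.X experiment gave BTG2 a different course. It was measured at 68.3 and 66.1 CPM in WT at D0 and at 21.2, 24.0 and 20.9 CPM in KO, so that KO was 3.05-fold lower without overlap (log2 -1.61 ± 0.29, edgeR, adjusted p = 0.0065). At D6 WT was at 113.7 and 178.1 CPM and KO at 191.7, 272.9 and 124.7 CPM, with overlap and a difference of 0.43 ± 0.29. The rise from D0 to D6 was 8.92-fold in KO (log2 3.16 ± 0.28, edgeR, adjusted p = 0.00011) and 2.17-fold in WT (log2 1.12 ± 0.32, adjusted p = 0.099). The change of the KO effect between the days was 2.04 ± 0.41 on the log2 scale (edgeR, adjusted p = 0.046, against 1.34% of all genes called), and BTG2 was the one gene of the 9 called in this test. Leaving out any 1 library other than replicate 3 of KO at D6 took that adjusted p above 0.05, to 0.051 to 0.17. For the BAZ1B pair of genotypes, all 6 libraries of D0 lay between 14.6 and 16.8 CPM. The tables were made separately, so the levels are set side by side and were not tested.

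GADD45A (chr1:67685201-67688334, plus strand), a stress sensor that slows the cycle and takes part in DNA repair, was higher at D6 than at D0 in every group mean. In the WT cells of the BAZ1B experiment it rose from 8.20, 7.84 and 8.91 CPM at D0 to 30.4, 29.0 and 32.4 CPM at D6 (3.68-fold, log2 1.88 ± 0.07, edgeR, adjusted p = 3.4e-10), and in BAZ1B KO from 7.31, 7.41 and 6.98 to 24.3, 27.1 and 27.0 CPM (3.61-fold). Every KO library was lower than every WT library at both days, with differences of -0.20 ± 0.08 at D0 (adjusted p = 0.22) and -0.23 ± 0.07 at D6 (adjusted p = 0.05004). Neither passed the threshold, and the second did under DESeq2 (adjusted p = 0.038). For the H2A.X pair of genotypes, the D0 levels were 26.9 and 30.5 CPM in WT and 6.59, 9.33 and 7.96 CPM in KO, 3.60-fold lower without overlap (log2 -1.85 ± 0.26, edgeR, adjusted p = 0.0035). At D6 WT was at 41.2 and 59.0 CPM and KO at 41.4, 57.6 and 32.9 CPM, with overlap. The rise was 5.52-fold in KO (log2 2.46 ± 0.24, adjusted p = 0.00016), and the change in WT was 0.80 ± 0.28 (adjusted p = 0.15). The difference of the KO effects was 1.66 ± 0.37, with an adjusted p of 0.057 in edgeR and 0.0022 in DESeq2.

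The low BTG2 and GADD45A in H2A.X KO at D0 stood beside a lower erythroid marker level, with 11 of 15 markers called lower and 0 higher. Of all tested genes, 35.1% were called there in either direction. In the same comparison 3 of 5 mast cell and eosinophil markers were called higher and 0 lower, and the 1 megakaryocyte and the 1 monocyte marker tested were higher. Their part in the result was not tested. Without WT replicate 2 at D0, which leaves 1 WT library at that day, none of the 9 genes was called in H2A.X KO at D0, although the values for BTG2 and GADD45A were -1.63 and -1.75 (adjusted p = 0.082 and 0.051). With the length and GC correction both calls were kept.

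CDKN1A (chr6:36676460-36687337, plus strand) encodes p21, the inhibitor of cyclin-dependent kinases through which p53 stops the cycle in its best known response, and its level was the lowest of the 9 genes in nearly every group. In the BAZ1B experiment 9, 13 and 7 reads were counted in WT at D0 and 10, 5 and 8 in KO. At D6 the WT cells had 26, 45 and 51 reads, or 0.77, 1.36 and 1.37 CPM, and KO had 14, 9 and 4 reads, or 0.37, 0.28 and 0.11 CPM. Both groups overlapped at D0, and all 3 KO libraries were lower at D6. The rise in WT was 5.07-fold (log2 2.34 ± 0.39, edgeR, adjusted p = 0.00014) and the change in KO was 0.31 ± 0.48 (adjusted p = 0.59). At D6 KO was 4.55-fold lower than WT (log2 -2.19 ± 0.39, edgeR, adjusted p = 0.0029), and this call was kept under each alternative that was run. The KO effects of the days differed by -2.03 ± 0.63 with an adjusted p of 0.12.

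In the H2A.X experiment 2 and 4 reads of CDKN1A were counted in WT at D0 and 2, 18 and 9 in KO, a difference of 1.26 ± 1.28 (adjusted p = 0.45). At D6 there were 27 and 30 reads in WT, or 1.76 and 3.06 CPM, and 5, 34 and 2 in KO, or 0.26, 1.84 and 0.11 CPM. KO replicate 2 at D6 lay within the WT range and the others far below it, and the KO difference was -1.68 ± 0.97 (adjusted p = 0.18). Without that library the difference was -3.62 (adjusted p = 0.018). The rise in WT was 3.60 ± 1.29 (adjusted p = 0.16), with both D6 libraries above both D0 libraries. The transcript DINOL lies inside the gene on the other strand, and with the strand setting of the counting unsettled, reads of the pair cannot be told apart.

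ZMAT3 (chr3:178960121-179072215, minus strand), an RNA-binding protein that acts on splicing and message stability, was lower at D6 than at D0, and the fall passed the test in both genotypes of the BAZ1B experiment and in H2A.X KO. For the BAZ1B pair of genotypes, it was measured at 43.1, 45.2 and 42.4 CPM in WT at D0 and at 14.6, 14.4 and 10.6 CPM at D6, a 3.31-fold fall (log2 -1.73 ± 0.11, edgeR, adjusted p = 1.9e-08). In BAZ1B KO it fell from 50.4, 45.3 and 47.3 to 15.95, 13.5 and 12.6 CPM (log2 -1.76 ± 0.11). The KO difference was 0.13 ± 0.10 at D0 and 0.09 ± 0.12 at D6, without overlap at D0, and neither passed the test. In the H2A.X experiment WT was at 13.1 and 13.1 CPM at D0 and KO at 38.0, 26.9 and 25.8 CPM, 2.31-fold higher without overlap (log2 1.21 ± 0.33, edgeR, adjusted p = 0.019). KO then fell to 18.3, 10.9 and 8.46 CPM at D6 (log2 -1.27 ± 0.28, adjusted p = 0.0080), and WT moved to 10.2 and 7.23 CPM (-0.58 ± 0.36, adjusted p = 0.39). The difference in H2A.X KO at D0 was 0.25 (adjusted p = 0.45) with the length and GC correction, and the call was also lost without KO replicate 1 or either WT library of D0 (adjusted p = 0.062 to 0.15).

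SESN1 (chr6:108984309-109094846, minus strand), a sestrin that restrains mTORC1 signalling and lowers oxidative stress, was lower in BAZ1B KO at D0 and higher in H2A.X KO at D6. In the BAZ1B experiment it was measured at 33.6, 33.5 and 35.1 CPM in WT at D0 and at 30.4, 28.1 and 30.2 CPM in KO, 1.15-fold lower (log2 -0.21 ± 0.05, edgeR, adjusted p = 0.030), and at D6 at 30.4 to 31.6 CPM in WT and 29.1 to 30.5 CPM in KO (-0.06 ± 0.05). The small difference at D0 did not overlap between the groups, but its call was lost with 8 of the 12 libraries left out in turn. Those were KO replicates 2 and 3 of D0 and all WT libraries of both days (adjusted p = 0.0504 to 0.14). It was -0.16 (adjusted p = 0.14) with the length and GC correction. With maturation SESN1 fell in WT by 0.13 ± 0.05 on the log2 scale (edgeR, adjusted p = 0.025) and moved by 0.01 ± 0.05 in KO. The fall was -0.01 with the length and GC correction, and its call was lost without WT replicate 3 of D0 or any WT library of D6 (adjusted p = 0.058 to 0.10). For the H2A.X pair of genotypes, SESN1 was at 26.4 and 26.4 CPM in WT at D0 and at 37.7, 33.5 and 34.8 CPM in KO (0.42 ± 0.18, adjusted p = 0.086). At D6 it was at 22.3 and 20.9 CPM in WT and at 37.8, 45.7 and 31.05 CPM in KO, 1.77-fold higher without overlap (log2 0.82 ± 0.18, edgeR, adjusted p = 0.0066). That value was 0.16 (adjusted p = 0.43) with the length and GC correction, and without WT replicate 2 at D6 it was 0.81 (adjusted p = 0.072).

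BBC3 (chr19:47220822-47232766, minus strand) encodes PUMA, a BH3-only protein that triggers mitochondrial apoptosis, and it rose with maturation. For the BAZ1B pair of genotypes, the WT cells had 18.7, 19.995 and 21.2 CPM at D0 and 46.5, 45.4 and 57.1 CPM at D6, a 2.49-fold rise (log2 1.32 ± 0.09, edgeR, adjusted p = 5.6e-08), and KO had 19.2, 18.4 and 20.2 CPM and then 37.5, 45.002 and 43.7 CPM, a 2.19-fold rise. All 3 KO libraries were below all 3 WT libraries at D6, a difference of -0.24 ± 0.09 that did not pass (adjusted p = 0.11). In the H2A.X experiment BBC3 went from 14.1, 21.7 and 15.96 CPM to 48.7, 78.3 and 28.2 CPM in KO (log2 1.58 ± 0.34, edgeR, adjusted p = 0.0066) and from 23.9 and 30.9 CPM to 58.1 and 89.7 CPM in WT (1.43 ± 0.42, adjusted p = 0.10). KO and WT differed by -0.67 ± 0.37 at D0 and -0.51 ± 0.37 at D6, without overlap at D0, and neither passed the test. At D6 the difference was 0.82 with the length and GC correction.

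PMAIP1 (chr18:59899996-59904305, plus strand) encodes NOXA, another BH3-only protein, and was the gene called lower in both knockouts at D6. For the H2A.X pair of genotypes, it was at 33.4 and 29.6 CPM in WT and 21.6, 20.7 and 15.7 CPM in KO at D6 (log2 -0.71 ± 0.18, 1.63-fold lower, edgeR, adjusted p = 0.012). In the BAZ1B experiment it was at 17.5, 18.8 and 18.7 CPM in WT and 13.1, 15.8 and 13.01 CPM in KO at D6 (log2 -0.39 ± 0.09, 1.31-fold lower, edgeR, adjusted p = 0.016). The groups did not overlap in either, although both values lost the call when corrected for length and GC (-0.53, adjusted p = 0.053, and -0.31, adjusted p = 0.062) or with some libraries left out, either WT library of D6 in the first (adjusted p = 0.075 and 0.084) and KO replicate 1 or 3 or WT replicate 2 or 3 of D6 in the second (0.055 to 0.071).

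At D0 PMAIP1 was at 15.1 and 16.8 CPM in H2A.X WT and 11.4, 9.87 and 11.3 CPM in KO (log2 -0.56 ± 0.19, adjusted p = 0.040), a call lost with any 1 of the D0 libraries or of the WT libraries of D6 left out (adjusted p = 0.055 to 0.23). In all, that call was lost under 10 of 16 alternatives, the length and GC correction among them. At D0 of the BAZ1B experiment PMAIP1 was at 12.5, 11.9 and 12.4 CPM in WT and 11.7, 10.1 and 9.54 CPM in KO (-0.23 ± 0.10, adjusted p = 0.27). With maturation it rose in all 4 groups, by 0.98 ± 0.20 in H2A.X WT (adjusted p = 0.043), 0.83 ± 0.17 in H2A.X KO (0.0046), 0.58 ± 0.09 in BAZ1B WT (0.00012) and 0.41 ± 0.10 in BAZ1B KO (0.0020). The call in H2A.X WT was lost with any 1 of the 4 WT libraries or the 3 KO libraries of D0 left out (adjusted p = 0.067 to 0.27).

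**Figure D3:**
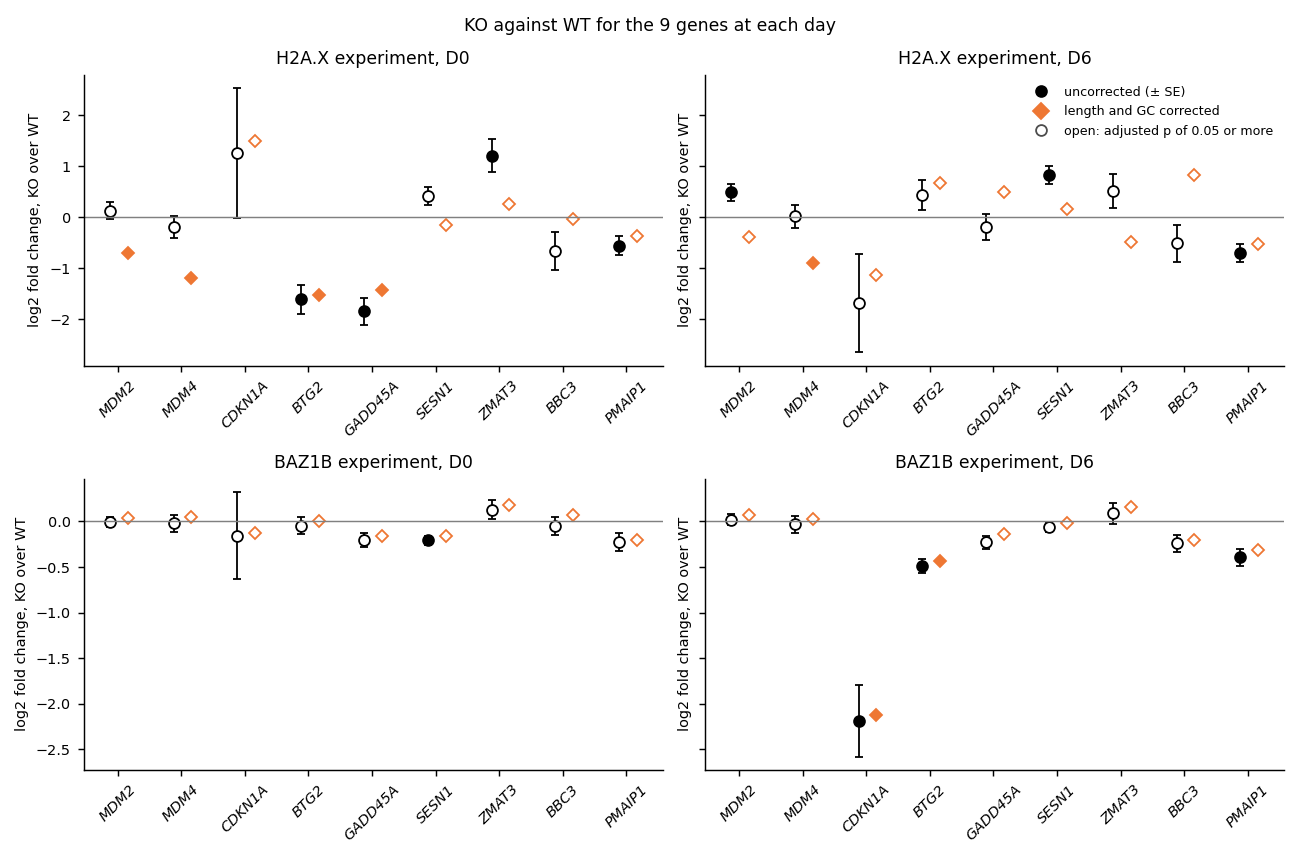
Log2 fold change of KO over WT for each gene at D0 and D6 in both experiments, uncorrected with its SE (black) and with each library corrected for gene length and GC content (orange diamonds, no error drawn); filled symbols have an adjusted p below 0.05, and the 2 experiments have different vertical scales. The correction moves MDM2, MDM4, SESN1 and ZMAT3 downward in H2A.X KO and leaves BTG2 and GADD45A lower at D0, while in BAZ1B KO CDKN1A and BTG2 stay lower at D6.

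In H2A.X KO at D6 the 3 libraries stood apart from each other for the inducible genes. Replicate 2 was the highest and replicate 3 the lowest for BTG2 (272.9 and 124.7 CPM), GADD45A (57.6 and 32.9 CPM) and BBC3 (78.3 and 28.2 CPM). For CDKN1A the same 2 libraries were at 1.84 and 0.11 CPM. Replicate 3 at D6 is also the KO column without the mark for a repeat.

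Across libraries BTG2 and GADD45A were alike, with Pearson's r of log2 CPM of 0.968 over the 10 libraries of the H2A.X experiment and 0.996 over the 12 of the BAZ1B experiment, and BBC3 went with them (0.898 and 0.992 to BTG2). The values to BTG2 were -0.809 and -0.99 for ZMAT3 and 0.0935 and -0.785 for MDM2. All these points share the split of the libraries into D0 and D6, so the values describe a pattern and carry no test. The genes most like each member, by the mean of r in the 2 experiments over 10046 genes (10047 for CDKN1A), were TUBG1 (0.995) and SLC6A9 (0.993) for BTG2, SLC25A39 (0.995) and PPDPF (0.993) for GADD45A, UROS (0.987) and CDC25C (0.978) for BBC3, and ADARB1 (0.983) and CAP1 (0.982) for ZMAT3. They were MARS (0.943) and CARS (0.940) for PMAIP1, SHOC2 (0.894) and GNA13 (0.883) for MDM2, and GRK6 (0.884) and FXR2 (0.866) for CDKN1A. The lowest values were for MDM4, with SALL4 (0.872) and AC073869.1 (0.869), and for SESN1, with PLXNA1 (0.857) and MYO1D (0.845).

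Of 9 paralogs of the members, 8 were tested in the BAZ1B experiment, where 5 rose and 1 fell with maturation in WT and 5 rose and 3 fell in KO, against 68.9% and 67.7% of all genes called. In H2A.X KO 3 of 9 rose, against 30.9%, and in H2A.X WT none was called, against 2%. GADD45B fell in the WT cells of the BAZ1B experiment with maturation (log2 -0.73 ± 0.22, edgeR, adjusted p = 0.0091) while GADD45A rose. At D6 of the H2A.X experiment 1 of the 9 paralogs was higher in KO and 2 were lower, against 43.1% of all genes called. The lower paralogs were GADD45B and GADD45G, with log2 fold changes of -2.84 ± 0.48 and -3.91 ± 0.98 (edgeR, adjusted p = 0.0040 and 0.011), where the GADD45A libraries overlapped. GADD45B had 24 to 38 reads in KO there, and its 2 WT libraries were apart, at 5.92 and 19.4 CPM. GADD45G had 0 to 6 reads in KO and 14 to 31 in WT, so its fold change rests on few reads. SESN2, an amino acid sensor, rose in BAZ1B WT by 1.68 ± 0.12, in BAZ1B KO by 0.79 ± 0.12 and in H2A.X KO by 3.41 ± 0.61, where SESN1 moved by -0.13, 0.01 and 0.11. At D6 SESN2 was lower in BAZ1B KO (-0.71 ± 0.12, adjusted p = 0.0018), and the difference of the KO effects passed for it (-0.89 ± 0.17, adjusted p = 0.019). CDKN1B and CDKN1C, the other inhibitors of the CDKN1A family, rose in BAZ1B WT by 0.88 ± 0.06 and 1.51 ± 0.30, and also in BAZ1B KO, where CDKN1A did not pass the test, by 0.76 ± 0.06 and 1.91 ± 0.33. CDKN1B was also raised in H2A.X KO (1.09 ± 0.18, adjusted p = 0.0017). BTG3 rose with BTG2 in the same 3 groups, by 1.13 ± 0.06 in BAZ1B WT, 0.88 ± 0.06 in BAZ1B KO and 1.32 ± 0.23 in H2A.X KO.

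A wider list of 26 other p53 target genes moved in both directions. Of the 23 tested in the BAZ1B experiment, 10 rose and 8 fell from D0 to D6 in WT and 9 and 9 in KO, where 68.9% and 67.7% of all genes were called. The medians were 0.00 and 0.11 against -0.02 for all genes. The death receptors TNFRSF10A and TNFRSF10B fell by 2.11 ± 0.11 and 1.90 ± 0.08 on the log2 scale in WT, and the secreted cytokine GDF15 rose by 3.26 ± 0.25. Values with the length and GC correction are not given for this list or those that follow. In H2A.X KO 5 of 22 rose and 5 fell, against 30.9% of all genes called, and in H2A.X WT 0 rose and 1 fell, against 2%. In BAZ1B KO at D6, 1 of 23 was higher than in WT and 5 were lower, against 12.8% of all genes called. Among the lower genes were GDF15 (-1.34 ± 0.22, adjusted p = 0.0018) and SESN2 given above. For both a change of the KO effect between the days passed the test as well (adjusted p = 0.039 for GDF15). At D0 1 of the 23 was higher and 1 lower, against 3.88%. In H2A.X KO 6 of 22 were higher and 5 lower than in WT at D0, and 6 and 6 at D6, against 35.1% and 43.1%. APAF1, the core of the apoptosome (1.66 ± 0.30 and 1.63 ± 0.31), FAS, a death receptor (1.40 ± 0.34 and 2.26 ± 0.38), and POLH, a translesion polymerase (1.32 ± 0.33 and 1.68 ± 0.34), were higher at D0 and D6.

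**Figure D4:**
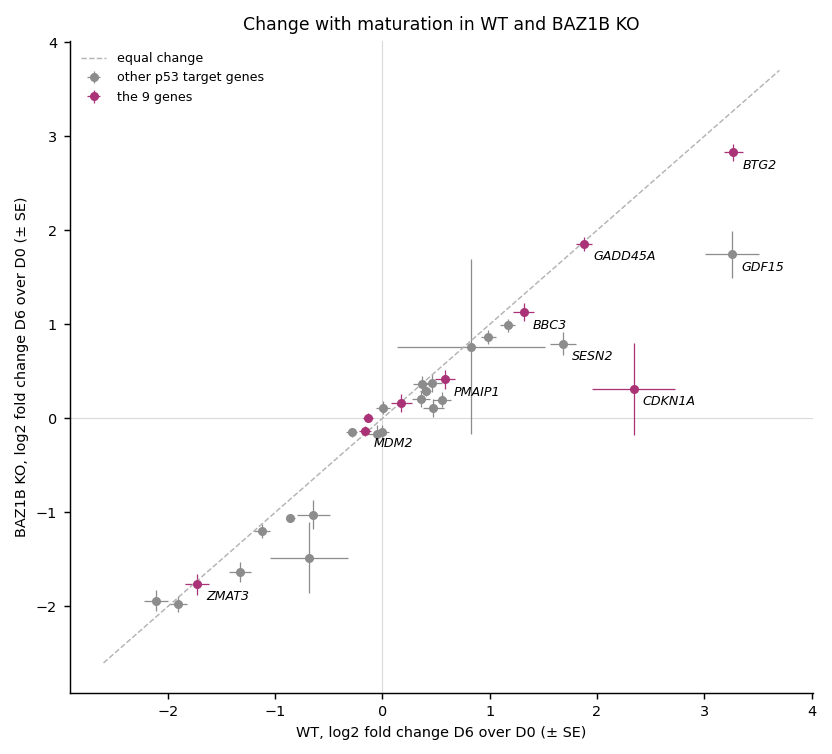
Log2 fold change from D0 to D6 (± SE) in the WT cells (horizontal) and in BAZ1B KO (vertical) for the 9 genes and for the other p53 target genes tested, without 1 that is not reported here; the dashed line marks equal change. Most genes lie near the line, while CDKN1A (2.34 and 0.31), GDF15 (3.26 and 1.74), SESN2 (1.68 and 0.79) and BTG2 (3.27 and 2.83) lie under it.

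Of 13 regulators of p53, 7 rose and 3 fell with maturation in both groups of the BAZ1B experiment, against 68.9% and 67.7% of all genes called. The largest change was that of the kinase HIPK2, which phosphorylates p53. It had 3 to 8 reads in WT at D0 and 118 to 146 at D6 (log2 4.84 ± 0.37, edgeR, adjusted p = 8.9e-08). BAZ1B KO had 0 to 2 reads at D0 and 11 to 27 at D6, so its reads rose as well. At D6 the log2 fold change of KO against WT was -2.94 ± 0.31 (edgeR, adjusted p = 7.3e-05). HIPK2 was the 1 of 13 regulators called there, against 12.8% of all genes. For the difference of KO effects 0 of 13 regulators were called, against 2.47% of all genes. RCHY1, a ubiquitin ligase for p53, fell by 1.23 ± 0.07 in WT and 1.15 ± 0.07 in KO. In H2A.X KO the acetyltransferases EP300 (2.34 ± 0.53 at D0 and 2.94 ± 0.55 at D6) and CREBBP (1.46 ± 0.34 and 1.74 ± 0.34) were higher and the ribosomal protein RPL11, which binds MDM2, was lower (-1.12 ± 0.24 and -1.04 ± 0.24). Of the 13 regulators, 4 were higher and 3 lower at D0 and 5 and 3 at D6, against 35.1% and 43.1% of all genes called. In H2A.X KO 2 of 13 rose with maturation, HIPK2 by 6.61 ± 0.71 and RPL11 by 0.67 ± 0.22. RCHY1 fell by 0.93 ± 0.16, where 30.9% of all genes were called. HIPK2 had 2 to 3 reads in H2A.X KO at D0 and 70 to 389 at D6, so its fold change starts from few reads. In H2A.X WT 0 of 13 were called, against 2%, although HIPK2 went from 5 to 13 reads at D0 to 47 to 54 at D6.

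The last list holds 16 proliferation genes of the kind that p21, RB and the DREAM complex repress. Of these, 15 rose and 0 fell with maturation in the WT cells of the BAZ1B experiment, and 13 rose and 0 fell in BAZ1B KO. Of all genes, 68.9% and 67.7% were called there in either direction, and the shares that rose are not given. Their median log2 fold changes were 0.55 and 0.54. CDK1 rose by 1.07 ± 0.04, CCNB2 by 1.07 ± 0.06 and CDC25C by 1.04 ± 0.07 in WT. In H2A.X KO 7 of 16 rose and 0 fell, against 30.9% of all genes called, and in H2A.X WT no member of the list was called, against 2%. In BAZ1B KO at D6 CDK1 was the 1 gene of the 16 called, against 12.8% of all genes, and it was lower (-0.23 ± 0.04, edgeR, adjusted p = 0.00090). At D0 of the BAZ1B experiment 0 of 16 were called, against 3.88%. In H2A.X KO 1 was higher and 6 lower at D0 and 2 higher and 6 lower at D6, against 35.1% and 43.1% of all genes called. Among them were TOP2A, a topoisomerase (1.14 ± 0.30 and 1.53 ± 0.31), and E2F1 (-0.94 ± 0.14 and -0.61 ± 0.14).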

How the data were processed

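The authors deposited 2 tables of raw counts, 1 per experiment, with whole-number counts of reads per gene name and no normalization. Per the labels, processing named STAR 2.7.0f, Subread 1.6.4 with featureCounts and hg38, and the study's methods add quality filtering and adaptor removal before mapping. The library kit is stranded in the methods and unstranded in the labels, and the strand setting of the counting is not given in the sources used here. The order of replicates was taken from the sample titles. No library was left out. Some genes of the lists enter the counts but are not reported here by name.

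The tests used edgeR 4.0.16 under R 4.3.3: filterByExpr (minimum count 10, minimum total 15), TMM normalization and a two-sided quasi-likelihood F test with 1 coefficient per genotype and day, fitted on all libraries of 1 table. P-values were adjusted by Benjamini-Hochberg over all tested genes, and the SE was taken from the F statistic. CPM were computed on the TMM-scaled library size. Lengths and GC content came from a GENCODE annotation of GRCh38 and covered 88.5% and 87.2% of tested genes. Alternatives were upper-quartile scaling, DESeq2 1.42.0, no filter, a replicate block, a smooth correction of each library for length and GC content, the compared day or genotype alone, and leaving out each library in turn. The block by subclone for the difference of KO effects and the correction joined with the block were chosen after seeing the data. The fitting was tested on simulated data.

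Members and lists were chosen with earlier results of these data known. Each member is named in each comparison, other genes if they are paralogs, among the 3 called genes of a list with the largest change in a comparison, or among the 2 most like a member in both tables (mean log2 CPM of at least 1). PPM1D and SESN2 each stand in 2 lists. The KO replicate number names a subclone in the study, and D0 and D6 libraries of the same number deviated together (r = 0.56, 0.31 and 0.29 in H2A.X KO, 0.41, 0.50 and 0.11 in BAZ1B KO, over 7337 and 7419 genes). The study names WT subclones too, but neither it nor the labels say whether the WT libraries come from separate subclones or cultures, so these replicates may be technical and p-values measure the spread between these libraries. Depth was 11910141 to 41273244 counts per library, and low read counts carry counting error besides.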

Additional observations from a re-analysis of the deposited data

Results flagged for a closer look

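BTG2 in the H2A.X experiment stood out because its KO effect differed between the days by a test of the difference itself. The KO effect was -1.61 ± 0.29 at D0 and 0.43 ± 0.29 at D6 on the log2 scale, and their difference was 2.04 ± 0.41 (edgeR, adjusted p = 0.046). The value stayed between 1.73 and 2.44 with any 1 library left out, and the adjusted p then ranged from 0.0067 to 0.17. At D0 all 3 KO libraries were lower than both WT libraries. At D6 the groups overlapped, with KO replicate 3 (124.7 CPM) between the 2 WT libraries (113.7 and 178.1 CPM). The KO effect at D6 by itself was not called (edgeR, adjusted p = 0.25). At D0 11 of 15 erythroid markers were called lower in KO, where 35.1% of all tested genes were called in either direction. At D6 2 of these markers were lower and 2 higher, against 43.1% of all genes. The part of these markers in this difference was not tested.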

How the results depend on the processing

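Of 1543 alternatives for single genes, 1337 kept the direction and the side of the threshold, 87 lost a call, 54 gained one and 65 changed sign, 3 of them from a called value. The cause of these shifts was not tested. The shares of all genes called under the alternatives below are not given. In the H2A.X experiment the count of called genes at D6 was 1 with the length and GC correction and 1 with the compared day alone. From D0 to D6 in WT it was 3 with DESeq2, 4 without the filter, 5 with the replicate block and 4 with the genotype alone. For the difference of KO effects it was 2 with upper-quartile scaling, DESeq2, no filter, the replicate block, the block by subclone and the correction. In the BAZ1B experiment it was 0 at D0 without the filter, with the replicate block, the correction or the day alone, and for the difference of KO effects 1 with DESeq2, 2 without the filter and 1 with either block. WT and KO libraries share only a number (r from -0.15 to 0.24). The WT libraries of both days also share a number that no label ties to a subclone, with r = 0.59 for both of the 2 pairs in the H2A.X experiment, where each deviation mirrors the other, and r from -0.030 to 0.24 in the BAZ1B experiment. The stricter cutoffs were also reached by 1 gene from D0 to D6 in H2A.X WT without the filter, and by 0 in H2A.X KO with the genotype alone. The block by subclone and the correction joined with a block were chosen after seeing the data.

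With the correction, values changed sign in H2A.X KO at D0 for MDM2 (-0.71) and SESN1 (-0.16) and at D6 for MDM2 (-0.39), MDM4 (-0.90), GADD45A (0.49), ZMAT3 (-0.50) and BBC3 (0.82). In BAZ1B KO they did at D0 for MDM2 (0.039), MDM4 (0.051), BTG2 (0.0085) and BBC3 (0.074), at D6 for MDM4 (0.029), from D0 to D6 for MDM2 (0.024, also 0.024 with the block), and for GADD45A in the difference of KO effects (0.022). MDM4 in H2A.X KO at D6 was -0.085 with upper-quartile scaling, which moved the median of all genes by -0.11 there, and -0.061 with the replicate block. Upper-quartile scaling gave MDM2 0.00032 at D0, -0.00086 at D6 and -0.0012 for the difference of KO effects in BAZ1B KO, and SESN1 -0.013 from D0 to D6. Without the filter that difference was 0.0012 for MDM4. The correction moved the median of all genes by 0.11 from D0 to D6 in H2A.X KO, 0.11 in BAZ1B WT and 0.13 in BAZ1B KO.

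With each library left out in turn, the count ranged from 0 to 5 at D0, 0 to 4 at D6, 0 to 3 from D0 to D6 in WT and 0 to 2 for the difference of KO effects in the H2A.X experiment, and from 0 to 1 at D0 in the BAZ1B experiment. Values of single genes crossed 0 in H2A.X KO at D0 for MDM2 (-0.0018 to 0.26) and MDM4 (-0.48 to 0.16), at D6 for MDM4 (-0.10 to 0.19) and GADD45A (-0.43 to 0.12), from D0 to D6 for CDKN1A (-1.28 to 1.48) and SESN1 (-0.034 to 0.26), in WT for MDM4 (-0.11 to 0.53), and in the difference of KO effects for MDM4 (-0.13 to 0.51), BBC3 (-0.28 to 0.54) and PMAIP1 (-0.24 to 0.020). In BAZ1B KO they crossed 0 at D0 for MDM2 (-0.049 to 0.048), MDM4 (-0.17 to 0.048), CDKN1A (-0.38 to 0.11) and BTG2 (-0.089 to 0.012), at D6 for MDM2 (-0.014 to 0.053), MDM4 (-0.088 to 0.0090) and ZMAT3 (-0.053 to 0.17), from D0 to D6 for CDKN1A (-0.082 to 0.67) and SESN1 (-0.024 to 0.031), and in the difference of KO effects for MDM2 (-0.027 to 0.070), MDM4 (-0.080 to 0.14), GADD45A (-0.080 to 0.019) and ZMAT3 (-0.18 to 0.040). Leaving out an H2A.X WT library leaves 1 at that day, taken to vary like the other groups. Depth limits CDKN1A most, with 2 to 51 reads per library.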
